A study of Mus musculus with 22 samples.

Results

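The genes described here are 37 transcripts that mark T cells and natural killer (NK) cells, followed in RNA from mouse ulna. They were taken by name, and all 37 had a row among the 25471 genes of the deposited tables. 24 encode the T cell receptor complex, its coreceptors, other T cell surface proteins, signalling proteins and transcription factors of T cells. The other 13 encode NK receptors, proteins of cytotoxic granules and partners of these in NK cells and cytotoxic lymphocytes. 36 of them, 23 on the T cell side and 13 on the NK and cytotoxic side, had enough counts for a test. The exception was Ctla4, an inhibitory receptor of T cells, with 0 to 19 counts in a library.

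RNA came from the middle stretch of the ulna, a bone of the forelimb, of 11 mice. Each mouse gave a mechanically loaded right ulna and a nonloaded left ulna, so 22 libraries fell into 4 groups: 7 loaded and 7 nonloaded bones of wildtype mice (WT), and 4 loaded and 4 nonloaded bones of mice labelled as a conditional knockout of Tlr4 (CKO here). Tlr4 is an innate immune receptor, and the series title places it in osteoblasts. The labels state neither the Cre driver nor the floxed allele, and strain, age, sex, loading regime and time of harvest are likewise not given in these sources. The replicates are separate mice.

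T cells recognise peptide antigen through a receptor whose variable chains sit beside the CD3 signalling chains, and the kinases Lck and Zap70 pass the signal on to the adaptor Lat. NK cells carry no such rearranged receptor; they weigh activating and inhibitory receptors and kill by releasing perforin and granzymes, which cytotoxic T cells release too. In bone both kinds of cell live mainly in the marrow, as a minor share of its cells.

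Library totals ran from 21999891 to 42833729 counts, and all levels are in CPM, counts scaled to the size of the library. Tlr4 itself lay between 24.9 and 42.2 CPM in every library, with overlapping genotypes, which does not show whether an exon was lost or in which cells. Ltbp2, a gene that parts the genotypes elsewhere in the series, went against the label in 2 libraries. The library labelled WT loaded 686 had 380 CPM of it, against 26.5 to 73.5 CPM in the other WT libraries, and the library labelled CKO loaded 688 had 38.4 CPM, against 205 to 344 CPM in the other CKO libraries. For the 5 comparisons the medians over these genes, and most counts, are therefore given with and without mice 686 and 688. The comparison of T cell with NK genes and all other gene lists are given only with them. Skeletal muscle genes took between 2.81 and 15.8% of a library's counts, the lowest share in CKO nonloaded 691 and the highest in CKO loaded 698.

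RefSeq promoter windows on GRCm38.p6, from 250 bases before to 50 bases after the transcript start, were on hand for 23 of the 37 genes. The 4 stretches printed here are the 250 bases before the start of the T cell marker Cd3e, of the NK and cytotoxic marker Nkg7, of the NK receptor gene Ncr1 and of Gata3, the gene with the smallest p-values below. They are shown 5′ to 3′ on the strand of the gene. Capitals mark 4 short motifs, named for the factor families known to bind such letters and searched on both strands. RUNX was searched as TGTGGT and its reverse complement. The T-box letters were TCACAC, read from either strand. GATA was searched with AGATAA in the same way. For ETS the letters were AGGAAG.
Cd3e, chr9:45009612-45009861, minus strand: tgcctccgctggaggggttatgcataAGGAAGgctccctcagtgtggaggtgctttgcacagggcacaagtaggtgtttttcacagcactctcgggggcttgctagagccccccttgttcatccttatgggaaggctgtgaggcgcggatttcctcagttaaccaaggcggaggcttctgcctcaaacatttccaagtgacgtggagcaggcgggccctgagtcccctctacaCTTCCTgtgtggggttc
Gata3, chr2:9878601-9878850, minus strand: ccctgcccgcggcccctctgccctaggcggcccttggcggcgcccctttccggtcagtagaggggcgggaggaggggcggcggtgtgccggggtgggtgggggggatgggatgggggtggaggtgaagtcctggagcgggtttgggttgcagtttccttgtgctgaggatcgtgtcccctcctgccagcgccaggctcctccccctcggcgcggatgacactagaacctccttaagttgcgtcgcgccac
Nkg7, chr7:43436888-43437137, plus strand: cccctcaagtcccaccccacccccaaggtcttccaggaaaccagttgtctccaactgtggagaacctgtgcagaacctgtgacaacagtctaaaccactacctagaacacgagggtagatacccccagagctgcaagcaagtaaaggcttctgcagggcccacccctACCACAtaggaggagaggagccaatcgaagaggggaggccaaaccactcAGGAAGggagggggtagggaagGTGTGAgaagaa
Ncr1, chr7:4337465-4337714, plus strand: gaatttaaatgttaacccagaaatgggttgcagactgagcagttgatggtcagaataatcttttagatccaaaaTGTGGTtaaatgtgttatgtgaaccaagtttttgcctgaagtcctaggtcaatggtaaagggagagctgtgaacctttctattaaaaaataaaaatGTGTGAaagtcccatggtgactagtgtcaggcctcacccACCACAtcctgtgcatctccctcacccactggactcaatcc
The Cd3e stretch holds 2 ETS matches, the Nkg7 stretch 1 match each of RUNX, T-box and ETS, and the Ncr1 stretch 2 RUNX matches and 1 T-box match, while the Gata3 stretch holds 0.

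The RUNX letters stood in the windows of 11 of the 23 genes, 47.8%, against 18.9% of all 27025 genes in the table. They were split unevenly, with 8 of 10 NK and cytotoxic genes (Klrb1c, Klrk1, Ncr1, Nkg7, Gzma, Gzmb, Prf1 and Txk) and 3 of 13 T cell genes (Lck, Zap70 and Lat). The ETS letters stood in 14 of the 23 genes (60.9%, against 38.4% of all genes), the T-box letters in 6 (26.1%, against 16.4%) and the GATA letters in 2 (8.7%, against 12.7%). RUNX and T-box matches can share letters, and a stretch that matches both was counted for each. A match is a description of letters and was not tested as a binding site.

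The genes were low but measurable, and they spanned a wide range of levels. Per kilobase of exon, Nkg7, a membrane protein of cytotoxic granules, was the most abundant in WT nonloaded bone at 14.7 ± 8.99 CPM per kb (SD, n = 7). Ccl5, a chemokine of activated and memory lymphocytes, followed at 4.61 ± 1.42, then the T cell receptor beta constant gene Trbc2 at 3.74 ± 1.75, the interleukin-2 receptor chain Il2rb at 3.66 ± 1.35, Cd4 at 3.6 ± 2.56, the adaptor Lat at 3.58 ± 1.40 and Thy1 at 3.14 ± 0.596 CPM per kb. Neighbours from Ccl5 to Thy1 lay within 1 SD of each other. Cd3e, a core chain of the receptor complex, stood at 0.659 ± 0.241 CPM per kb, the cytotoxic coreceptor Cd8a at 0.557 ± 0.237, the transcription factor Gata3 at 0.297 ± 0.0422 and the costimulatory receptor Icos at 0.158 ± 0.0564, the lowest of those tested. Thy1 is also made by fibroblast-like cells, Cd4 by some myeloid cells, Lat by platelets and mast cells, and Gata3 by innate lymphoid cells, so that these genes do not mark T cells alone.

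In WT mice the limb differences of these genes scattered around 0. Cd3e was at 1.51, 2.4 and 4.55 CPM (lowest, median, highest of 7) in nonloaded and at 1.66, 2.64 and 4.48 CPM in loaded WT ulnae. The ranges nearly coincided, and 2 of 7 mice had more Cd3e in the loaded limb (log2 fold change of -0.03 ± 0.25, where ± gives the SE, with an edgeR adjusted p of 1). Nkg7 was at 9, 9.37 and 31.3 CPM in nonloaded and at 8.93, 14 and 22.9 CPM in loaded ulnae, with more in the loaded limb of 5 of 7 mice but with ranges that overlapped throughout (0.09 ± 0.28; adjusted p = 1).

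0 of the 36 genes passed the edgeR threshold of adjusted p 0.05 for loading in WT, where 0.00532% of all 18793 genes tested did; DESeq2 and limma voom also called 0. At an unadjusted p under 0.05 the edgeR count was 0 of 36, against 2.34% of all genes. 22 genes lay above 0 and 14 below, from -0.34 to 0.29, with a median of 0.03 beside -0.01 over all genes. The smallest p belonged to Gata3 (0.29 ± 0.15), Thy1 (0.18 ± 0.12, with 5 of 7 mice above 0) and Klrd1, the CD94 chain of NK receptors (-0.25 ± 0.19).

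The median of the WT mice hid large differences between animals. In mouse 694 all 36 genes were higher in the loaded limb, with a median limb difference of 1.20 (log2 CPM); Cd8a, for example, differed by 2.17 there and Cd3e by 1.53. In mouse 685, by contrast, 35 of 36 were lower in the loaded limb (median -0.47), and the remaining mice had 24 (686), 13 (687), 6 (690), 21 (692) and 11 (699) genes higher. Without mouse 694 the WT median was -0.17 and 32 of 36 genes lay below 0, while without mouse 685 it was 0.15 with 28 of 36 above 0. Without mice 686 and 688 the direction of the small median turned, to -0.02, with 15 of 37 genes above 0 and 22 below; without 686 alone it was -0.03. Gene lists of other cells moved with mouse 694: the mean limb difference of 12 B cell genes was 1.33 there, of 12 neutrophil genes 0.91, of 12 macrophage genes 0.63, of 11 erythroid genes 1.48, and of 15 muscle genes -1.29. Smaller were those of 12 bone genes (-0.26), 8 plasmacytoid dendritic cell genes (0.45) and 8 mast cell genes (-0.37). In mouse 685 the lists did not move as 1. The B cell genes were at -0.03 there, the neutrophil genes at 0.08, the macrophage genes at -0.35 and the erythroid genes at 1.46. The part of these cells in the result was not tested. Fewer cells of a type cannot be told apart from less RNA per cell in bulk bone.

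**Figure D1:**
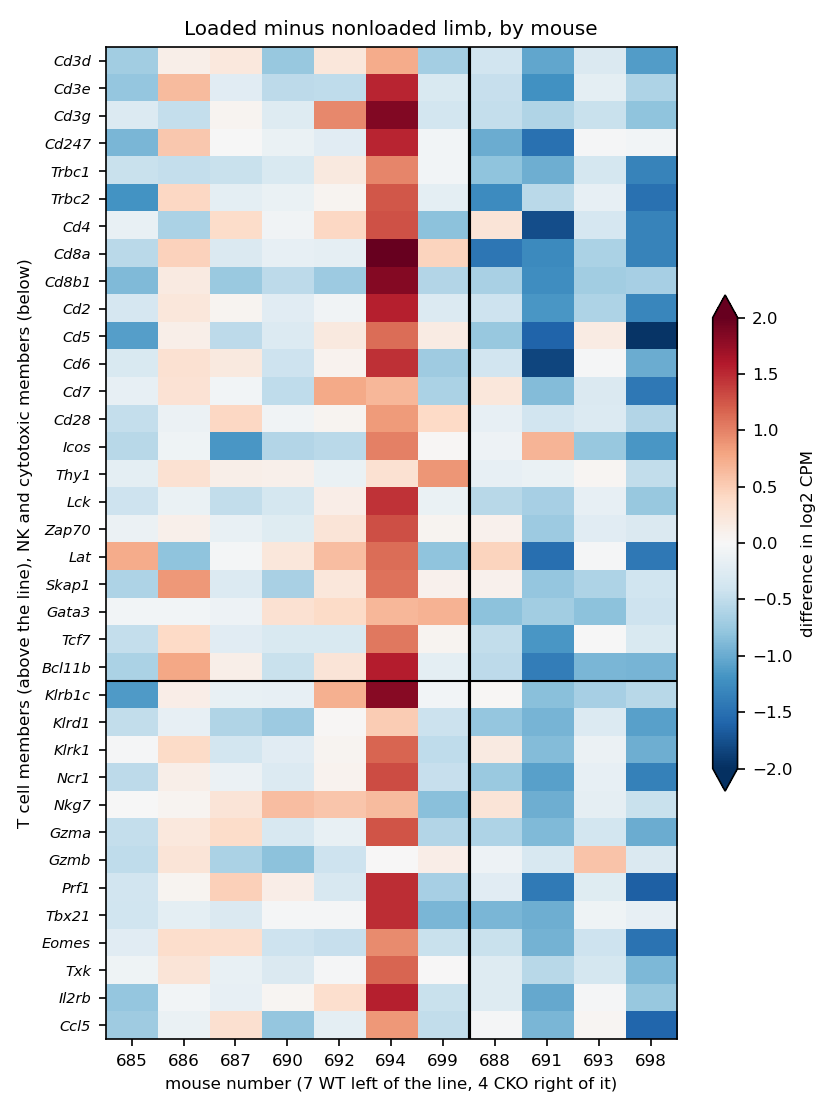
Limb difference (loaded minus nonloaded, log2 CPM, colour scale from -2 to 2) of each of the 36 genes tested, by mouse, with 7 WT mice left and 4 CKO mice right of the vertical line and T cell genes above the horizontal line. Mouse 694 is higher in the loaded limb for 36 of 36 genes, and CKO mouse 698 lower for 36 of 36.

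In CKO mice the same genes were mostly lower in the loaded than in the nonloaded limb, on both the T cell and the NK side, but no single gene passed the test. All 36 lay below 0, from -1.18 to -0.04, with a median of -0.68 beside -0.01 over all genes; the median was -0.71 for the T cell and -0.54 for the NK and cytotoxic genes. 0 of 36 had an adjusted p under 0.05 in edgeR (0.0160% of all genes did), and 0 in DESeq2 or limma voom. At an unadjusted p under 0.05, 12 of 36 were lower in edgeR, against 2% of all genes, and 9 of the 12 were T cell genes. 23 genes, or 63.9%, were lower in the loaded limb of 4 of 4 CKO mice, 15 of 23 T cell and 8 of 13 NK and cytotoxic genes, against 5.90% of all genes. Without mice 686 and 688, where 3 CKO mice remain, it was 31 genes (86.1%), against 27.7% of all genes. The genes moved together within a mouse, with 35 of 36 lower in the loaded limb of 691 and 36 of 36 in 698. Counts of genes, here and below, are therefore not independent observations, and the replicates are the mice. Most lists of other cells shifted in the same comparison. Below 0 lay 12 of 12 B cell genes (median -0.56), 12 of 12 neutrophil genes (-0.54) and 12 of 12 macrophage genes (-0.47). So did 11 of 11 erythroid genes (-0.48), while 15 of 15 muscle genes (0.55) and 9 of 12 bone genes (0.10) lay above 0. Less uniform were 8 plasmacytoid dendritic cell genes, 6 of them below 0 (-0.41), and 8 mast cell genes, 5 of them below 0 (-0.23). The part of these cells in the result was not tested.

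Within the T cell receptor complex all 6 genes were below 0, from -0.88 to -0.61. Cd3e was at 3.23, 4.6, 2.98 and 2.07 CPM in the nonloaded ulnae of mice 688, 691, 693 and 698 and at 2.33, 1.95, 2.6 and 1.31 CPM in their loaded ulnae. Each mouse was lower in its loaded limb, and the groups overlapped (-0.66 ± 0.34; adjusted p = 0.739). Trbc1, a beta chain constant gene, was at 2.14, 2.03, 1.61 and 1.6 CPM in the nonloaded and at 1.19, 0.991, 1.25 and 0.595 CPM in the loaded ulnae of the same mice. Here every loaded library was below every nonloaded one (-0.88 ± 0.32; adjusted p = 0.739). Its near-identical neighbour Trbc2, with which reads may be shared, gave -0.83 ± 0.37.

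The coreceptor genes Cd8a and Cd4 showed the widest differences, while the third, Cd8b1, gave -0.88 ± 0.46. Cd8a, the coreceptor chain of cytotoxic T cells, was at 3.11, 3.75, 2.74 and 1.6 CPM in the nonloaded ulnae of mice 688, 691, 693 and 698 and at 1.1, 1.5, 1.74 and 0.595 CPM in the loaded ones. Each mouse was lower in its loaded limb, with 1 nonloaded library (698) inside the loaded range (-1.18 ± 0.42; adjusted p = 0.739). Cd4, the coreceptor of helper T cells, was at 6.95, 37.8, 16.3 and 18.6 CPM in nonloaded and at 8.29, 11, 12.9 and 7.32 CPM in loaded ulnae. It was lower in the loaded limb of 3 of 4 mice, and its fitted difference was -1.01 ± 0.48 with mouse 691 and -0.55 without it. Over 21 other settings the Cd4 difference ran from -1.25 to -0.13. Among the surface proteins, all 7 tested were below 0, from Cd5 (-0.93 ± 0.39) and Cd6 (-0.86 ± 0.35) to Thy1 (-0.19 ± 0.16).

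The signalling genes Lck, Zap70, Lat and Skap1 ranged from -0.72 to -0.33, with 0 of 4 at an unadjusted p under 0.05. Of the transcription factors, Bcl11b, which fixes T cell identity, had -0.98 ± 0.40, Gata3 -0.71 ± 0.20 and Tcf7, a factor of early and memory T cells, -0.46 ± 0.27.

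On the NK side Klrd1 had the smallest p. It was at 1.86, 2.1, 1.34 and 1.27 CPM in the nonloaded ulnae of mice 688, 691, 693 and 698 and at 1.05, 1.08, 1.1 and 0.563 CPM in the loaded ones. All 4 loaded libraries were below all 4 nonloaded ones (-0.80 ± 0.26; edgeR adjusted p = 0.739). Gzma, a granzyme, was at 3.15, 3.45, 2.23 and 1.7 CPM in nonloaded and at 2.05, 1.84, 1.71 and 0.814 CPM in loaded ulnae, lower in the loaded limb of each mouse with an overlap of the groups (-0.72 ± 0.35). The pore-forming protein gene Prf1 gave -0.86 ± 0.45 and the T-box factor Eomes -0.77 ± 0.35. Nkg7 (-0.43 ± 0.38) was lower in 3 of 4 mice, and Ccl5 had -0.54 ± 0.31. Gzmb, at 4 to 17 counts in a library, had -0.04 ± 0.44, an error as wide as many of the differences around it.

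6 genes, or 16.7%, had every CKO loaded library below every CKO nonloaded library, against 1.13% of all genes: Trbc1, Cd8b1, Cd6, Gata3, Klrd1 and Ncr1. Without mouse 688 it was 12 genes (33.3%), against 13.1% of all genes. The per-mouse medians were -0.40 (688), -0.95 (691), -0.26 (693) and -0.95 (698), so 2 mice carried the larger share. Without mouse 691 the median was -0.46 with 4 genes at an unadjusted p under 0.05, without 698 it was -0.60 with 4, and without both it was -0.33 with 1. Without mice 686 and 688 it was -0.71 with 9.

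The same 2 mice differed between limbs in the lists of other cells. The mean limb difference of the muscle genes was 2.67 in mouse 691 and 0.80 in 698, that of the B cell genes -1.17 and -1.06, of the neutrophil genes -1.29 and -0.71, and of the macrophage genes -0.98 and -0.94. The plasmacytoid dendritic cell genes were at -0.34 and -0.49 and the mast cell genes at 0.55 and -1.03 in these 2 mice. Mouse 688 differed from them, with 28 of the 36 T and NK genes lower in its loaded limb. Its neutrophil genes were at 0.44, its macrophage genes at 0.34, its erythroid genes at 1.85 and its B cell genes at 0.00. In mouse 693 these lists were at -0.29, -0.07, -0.21 and -0.08. Over the 4 CKO mice the muscle genes had a mean limb difference of 0.81 ± 1.34 (SD), from -0.43 to 2.67. That of the B cell genes was -0.58 ± 0.62. Summed muscle levels ran from 23300 to 162000 CPM in CKO nonloaded and from 118000 to 186000 CPM in CKO loaded libraries, and 0 of the 15 muscle genes were at 0. With the muscle score as a covariate the median over the T and NK genes was -0.35, with 34 of 36 below 0 and 4 at an unadjusted p under 0.05.

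**Figure D2:**
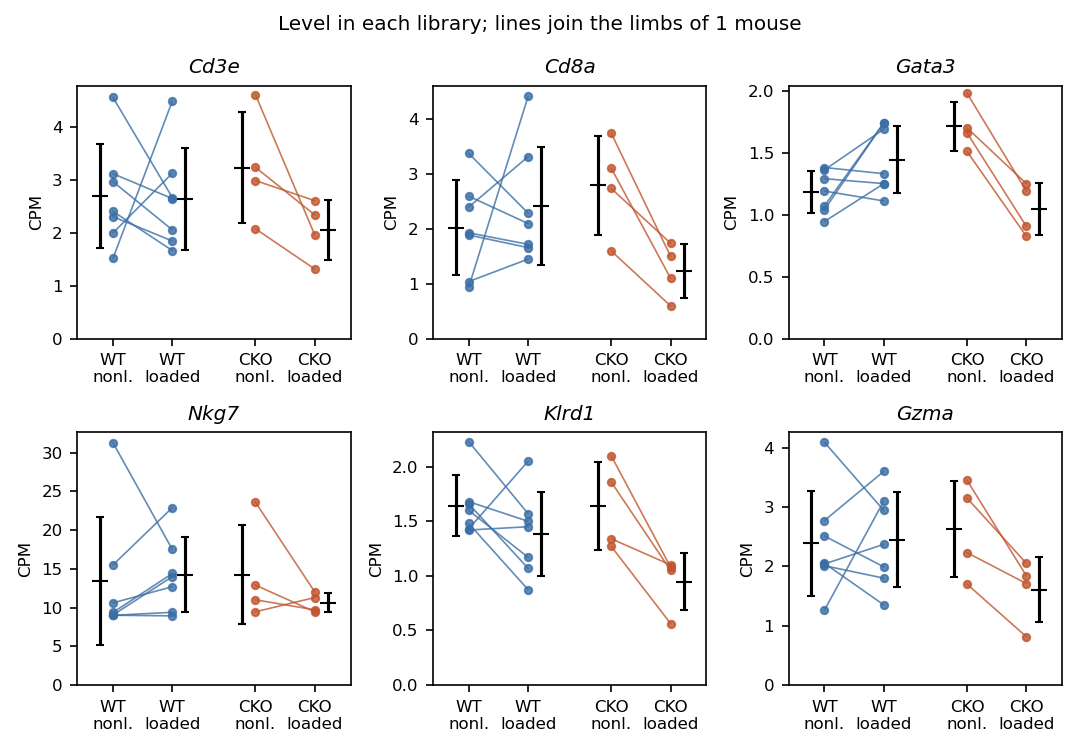
CPM of Cd3e, Cd8a, Gata3, Nkg7, Klrd1 and Gzma in each of the 22 libraries (points), with lines joining the nonloaded and loaded ulna of a mouse and black bars giving mean and SD of 7 WT or 4 CKO mice. Gata3 and Klrd1 have all 4 CKO loaded points below all 4 CKO nonloaded points, while the WT groups overlap in all 6 panels.

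**Figure D3:**
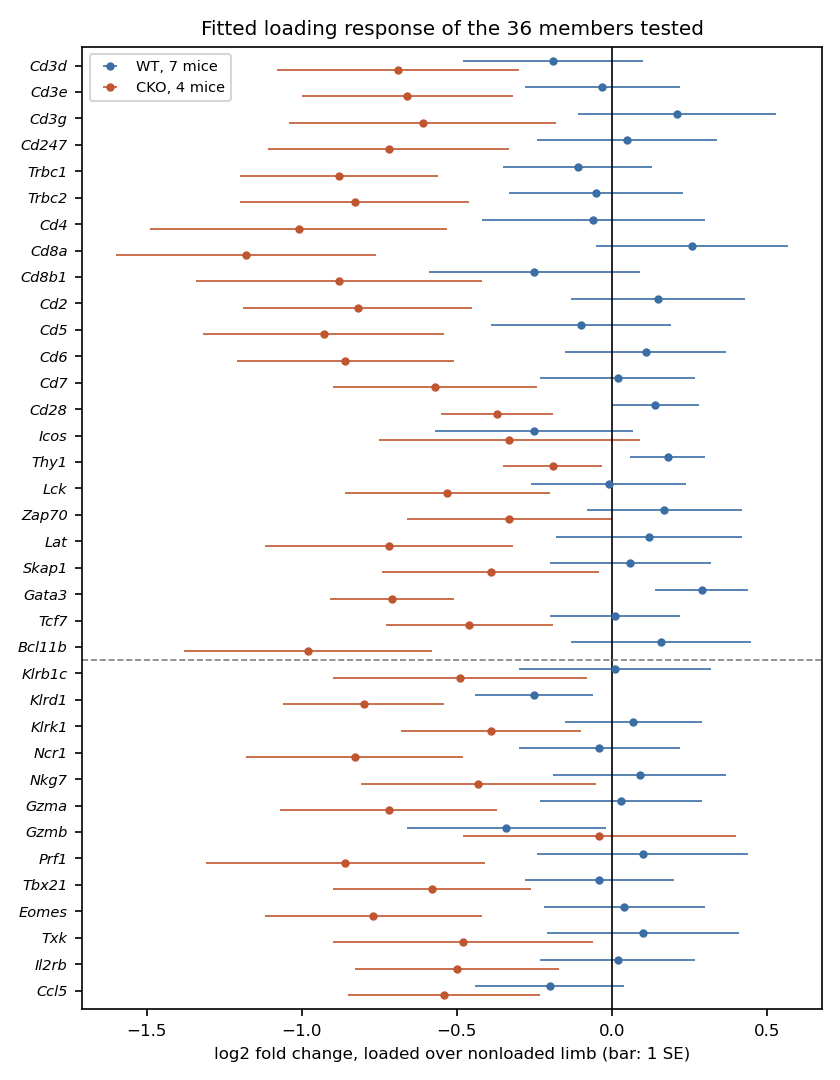
Fitted log2 fold change of the loaded over the nonloaded limb (points, bars 1 SE) for the 36 genes in WT and CKO mice, with T cell genes above the dashed line. CKO points lie between -1.18 and -0.04, and WT points between -0.34 and 0.29.

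The difference between the 2 loading responses was tested as an interaction. 35 of 36 genes had a lower response in CKO than in WT, from -1.44 to 0.31, and the median was -0.61 beside 0.00 over all genes. Gzmb was the exception, at 0.31 ± 0.55. 0 of 36 passed adjusted p 0.05 in edgeR, as did 0% of all genes, and 0 passed in DESeq2 or limma voom. 5 genes, all of the T cell side, had an unadjusted p under 0.05 and a lower response, against 1.45% of all genes: Cd8a (-1.44 ± 0.52), Bcl11b (-1.15 ± 0.49), Gata3 (-1.0 ± 0.25), Cd6 (-0.97 ± 0.44) and Cd28 (-0.51 ± 0.23). The count was 10 in the paired fit with the mouse as a replicate block (median -0.65).

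The limb difference of every CKO mouse lay below that of every WT mouse for 3 genes, Cd8a, Cd2 and Gata3 (8.33%), against 0.229% of all genes. Without mice 686 and 688 it held for 6 genes (16.7%), Cd3g, Cd8a, Cd2, Gata3, Bcl11b and Txk, against 1.90% of all genes. The count of 5 genes at an unadjusted p under 0.05 moved both ways when single mice were left out. It was 12 without WT mouse 685 (median -0.74) and 8 without WT mouse 699 (median -0.72). It was 2 without WT mouse 694 (median -0.44) and 2 without CKO mouse 691 (median -0.45), and 3 without 686, 687 or 698. It was 1 without 691 and 698 (median -0.31), 3 without 686 and 688 (median -0.66), and 2 with the muscle score as a covariate (median -0.35). Most lists of other cells lay to 1 side of 0 too, with 0 genes past adjusted p 0.05 in edgeR in any list. Below 0 lay 12 of 12 B cell genes (median -0.70), 12 of 12 neutrophil (-0.53), 12 of 12 macrophage (-0.50) and 11 of 11 erythroid genes (-0.82). Above 0 lay 15 of 15 muscle genes (0.64) and 11 of 12 bone genes (0.58). Of 8 plasmacytoid dendritic cell genes 6 lay below 0 (-0.53), and of 8 mast cell genes 4 (-0.13). The part of these cells in the interaction of the T and NK genes was not tested.

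The genotypes were next compared within each limb. In nonloaded ulnae 31 of 36 genes were higher in CKO, with a median of 0.15 beside 0.00 over all genes and a range from -0.70 (Gzmb) to 0.53 (Gata3). 0 of 36 passed adjusted p 0.05 in edgeR, DESeq2 or limma voom (0% of all genes in edgeR), and 1 gene, Gata3, was higher at an unadjusted p under 0.05, against 0.857% of all genes. Without CKO mouse 691 the median was -0.03 with 16 genes above 0 and 20 below, without CKO mouse 698 it was 0.26 with 34 of 37 above, and without WT mouse 685 it was 0.30 with 35 of 36 above and 3 genes at an unadjusted p under 0.05. Without WT mouse 694 it was 0.08 with 24 of 36 above. Without 686 and 688 it was 0.11 with 27 of 37 above and 2 genes at an unadjusted p under 0.05. Other lists shifted too in nonloaded bone. Above 0 lay 11 of 12 B cell genes (median 0.32), 10 of 11 erythroid (0.50), 11 of 12 macrophage (0.20) and 11 of 12 neutrophil genes (0.13). For muscle genes it was 7 of 15 (-0.05) and for bone genes 0 of 12 (-0.62). For plasmacytoid dendritic cell genes it was 7 of 8 (0.20) and for mast cell genes 6 of 8 (0.23). The part of these cells in this comparison was not tested.

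In loaded ulnae 35 of 36 genes were lower in CKO, with a median of -0.48 beside -0.04 over all genes, and Icos was the exception at 0.12 ± 0.38. 0 passed adjusted p 0.05 in edgeR, DESeq2 or limma voom (0% of all genes in edgeR). 8 were lower at an unadjusted p under 0.05, against 2.81% of all genes, with Trbc1 (-0.90 ± 0.29), Gata3 (-0.47 ± 0.18) and Cd8a (-0.97 ± 0.38) at the smallest p. 0 of 36 had every CKO loaded library below every WT loaded library, against 0.511% of all genes; without mice 686 and 688 it was 2 genes, Cd28 and Lat (5.56%), against 8.27% of all genes. The count of 8 also moved both ways when mice were left out. It was 13 without WT mouse 692 (median -0.52), 4 without 686, and 5 without 687 or 693. Without mouse 698 the median was -0.32 with 2 genes at an unadjusted p under 0.05, without 694 it was -0.38 with 3, without 691 and 698 it was -0.25 with 1, and without 686 and 688 it was -0.57 with 3. With the muscle score as a covariate it was -0.30 with 3. In the same comparison 12 of 12 neutrophil genes lay below 0 (median -0.38), 11 of 11 erythroid genes (-0.32), 11 of 12 B cell genes (-0.37) and 11 of 12 macrophage genes (-0.35), and 15 of 15 muscle genes lay above 0 (0.65). Other lists were split, with 7 of 12 bone (-0.19), 5 of 8 plasmacytoid dendritic cell (-0.33) and 4 of 8 mast cell genes (0.13) below 0. The part of these cells in the genotype difference was not tested.

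Gata3, the zinc finger factor that directs helper T cells and innate lymphoid cells, had the smallest p of these genes in 4 of the 5 comparisons. The comparisons share libraries, so these ranks are not independent of each other. In WT mice Gata3 was at 0.944, 1.19 and 1.38 CPM (lowest, median, highest of 7) in nonloaded and at 1.11, 1.33 and 1.74 CPM in loaded ulnae. In CKO mice 688, 691, 693 and 698 it was at 1.66, 1.98, 1.51 and 1.7 CPM in nonloaded and at 0.905, 1.19, 0.825 and 1.25 CPM in loaded ulnae. Every CKO nonloaded library was thus above every WT nonloaded one, which held for 1 of 36 genes (2.78%) and 0.0639% of all genes, and the order was turned for the means in loaded ulnae. Its limb difference was -0.83, -0.70, -0.82 and -0.42 in the CKO mice and ran from -0.10 to 0.70 in WT mice.

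The interaction of Gata3 had an unadjusted p of 0.000622 and an adjusted p of 0.697 in edgeR. Over 20 other settings its interaction lay between -1.15 and -0.82, with adjusted p from 0.273 to 1. In mouse 694 its limb difference was 0.67, against 1.53 for Cd3e. Gata3 rested on 19 to 79 counts in a library. Its exons (GRCm38, chromosome 2, 9857078 to 9890034, minus strand) overlap those of 9230102O04Rik on the same strand and of Gm13256 on the other, so that its counts may hold reads of these genes.

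T cell and NK genes moved together from library to library rather than apart. Cytotoxic T cells make perforin and granzymes too, so the 2 lists do not fully part the 2 kinds of cell. The mean log2 CPM of the 23 T cell genes ran from 0.34 in CKO loaded 698 to 2.06 in WT loaded 694, and that of the 13 NK and cytotoxic genes from 0.27 in CKO loaded 698 to 2.11 in WT nonloaded 685. The difference between the 2 means stayed between -0.29 and 0.19 in the 22 libraries. As limb differences per mouse, the T cell genes gave 0.06 ± 0.55 (SD, n = 7) in WT and -0.66 ± 0.33 (n = 4) in CKO mice, and the NK and cytotoxic genes 0.00 ± 0.52 and -0.58 ± 0.40. T minus NK was 0.06 ± 0.13 in WT and -0.08 ± 0.08 in CKO mice, within 1 SD of 0 in WT and at about 1 SD in CKO, and it was positive in 4 of 7 WT mice and in 1 of 4 CKO mice. The direction of this small difference was the opposite, -0.08 in WT and 0.09 in CKO mice, with the median level of each side in place of its mean.

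A few libraries held most of the extremes. CKO loaded 698 was the lowest of 22 libraries for 24 of the 37 genes. WT nonloaded 685 was the highest for 18, CKO nonloaded 691 for 8 and WT loaded 694 for 6. Summed over all members, levels ran from 69.4 CPM in CKO loaded 698 to 232 CPM in CKO nonloaded 691.

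**Figure D4:**
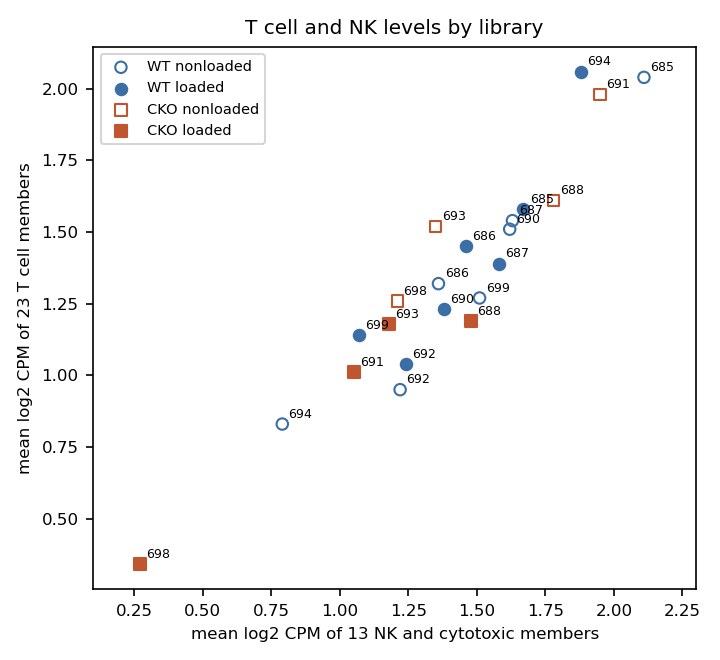
Mean log2 CPM of the 23 T cell genes against that of the 13 NK and cytotoxic genes in each library (circles WT, squares CKO, filled loaded, open nonloaded), numbered by mouse. The 22 libraries lie along 1 band, from CKO loaded 698 at 0.27 and 0.34 to WT nonloaded 685 at 2.11 and 2.04.

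Nkg7, Cd4 and Lat did not keep to this order, an observation made after their values were seen. Nkg7 reached 31.3 CPM in WT nonloaded 699, where the NK receptor gene Ncr1 was at 2.02 CPM, and stayed at 9.01 CPM in WT nonloaded 685, where Ncr1 was highest at 3.55 CPM. Over the 22 libraries Nkg7 per Ncr1 ran from 2.54 in WT nonloaded 685 to 21.3 in WT loaded 692. It was 15.5 in WT nonloaded 699 and 10.5 in CKO nonloaded 691. Cd4 was highest in CKO nonloaded 691 at 37.8 CPM and WT nonloaded 699 at 37 CPM, and Cd4 per Cd3e ran from 1.89 to 16.1. Lat was highest in the same 2 libraries, at 25.7 and 17.6 CPM, and Lat per Lck ran from 0.814 to 4.01.

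WT nonloaded 699 and CKO nonloaded 691 were also the libraries with the highest summed level of the 12 neutrophil genes, 20400 and 13200 CPM against 3020 to 10200 CPM in the other 20. They had the highest summed level of the 12 macrophage genes, at 3650 and 2790 CPM, and the lowest muscle share, at 4.51 and 2.81% of counts. 0 genes of these lists were at 0 in every library. The part of other cells in the levels of Nkg7, Cd4 and Lat was not tested.

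**Figure D5:**
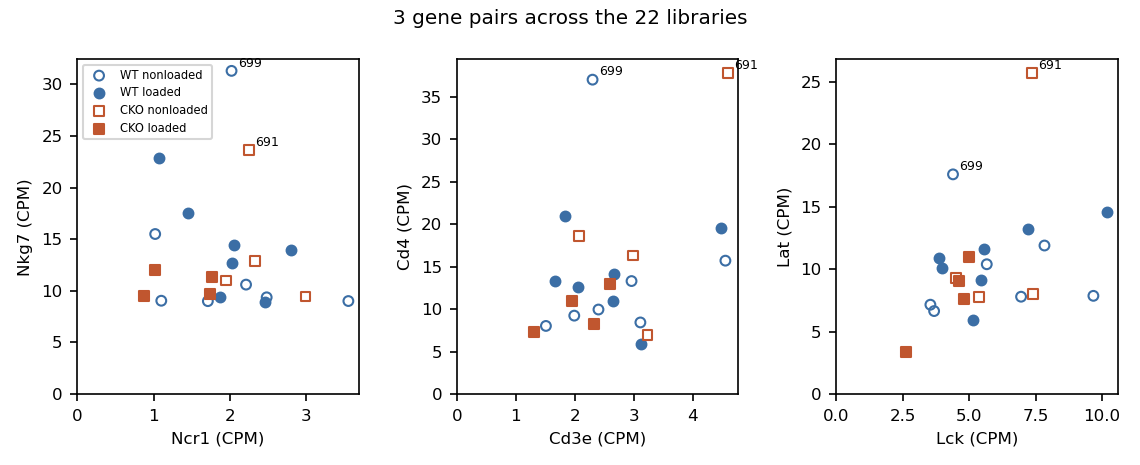
CPM of Nkg7 against Ncr1, Cd4 against Cd3e and Lat against Lck in each of the 22 libraries (circles WT, squares CKO, filled loaded, open nonloaded), with the 2 highest libraries of each panel numbered. In each panel WT nonloaded 699 and CKO nonloaded 691 are highest on the vertical axis. They reach up to 31.3 CPM of Nkg7, 37.8 CPM of Cd4 and 25.7 CPM of Lat. For Nkg7 CKO nonloaded 691 (23.6 CPM) is close to WT loaded 692 (22.9 CPM).

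A further list of 42 T and NK genes outside the 37 was read in the same fits, 37 of which were tested. For loading in WT 24 lay above 0 and 13 below, with a median of 0.06, and for loading in CKO 3 above and 34 below, with a median of -0.51. 0 of 37 passed adjusted p 0.05 in edgeR in any of the 5 comparisons, against the shares of 0.00532, 0.0160, 0, 0 and 0% of all genes given above. At an unadjusted p under 0.05, 1 gene was higher for loading in WT (2.7% of the 37, against 1.22% of all genes). For loading in CKO 5 were lower (13.5%, against 2%) and 1 higher (2.7%, against 1.61%). For the interaction 1 was lower (2.7%, against 1.45%), and in nonloaded bone 0 were higher (against 0.857%). In loaded bone 33 of the 37 lay below 0 (median -0.35). There 0 were lower at an unadjusted p under 0.05 (against 2.81%), where 8 of the 36 were, and 1 was higher (2.7%, against 4%). Rasgrp1, which switches on Ras in lymphocytes, had -0.71 ± 0.26 for loading in CKO and the receptor Cd96 -0.77 ± 0.37, each lower in 4 of 4 mice, and the death ligand Fasl had -1.01 ± 0.38, lower in 3 of 4. In nonloaded bone Cd96 and Fasl had the smallest p, both at 0.37 ± 0.32, and in loaded bone the kinase Prkcq, which skeletal muscle also makes, had 0.53 ± 0.20 (CKO over WT; edgeR adjusted p = 0.601). Fyn, a widely expressed Src-family kinase, had the second smallest p for loading in WT (0.17 ± 0.10).

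Trdc, the constant gene of the delta chain of gamma delta T cells, was the 1 gene of this list that lay above 0 at an unadjusted p under 0.05 for loading in both genotypes. It was at 0.244, 0.851 and 1.4 CPM (lowest, median, highest of 7) in nonloaded and at 0.816, 1.79 and 2.23 CPM in loaded WT ulnae, and at 0.889, 0.925, 0.72 and 0.567 CPM in nonloaded and 1.05, 1.33, 3.36 and 1.22 CPM in loaded ulnae of CKO mice 688, 691, 693 and 698. All 11 mice had more of it in the loaded limb, by as little as 0.01 in mouse 685 and as much as 2.12 in mouse 693 (log2 CPM). The WT groups overlapped and the CKO groups did not. The share of all genes parted upwards in this way was not computed. Trdc was named for its small p in these same values, so the parting is no further evidence. Being higher in 11 of 11 mice, a rule set after this value was seen, held for 0.165% of all genes and for 0 of the 36. The fits gave 0.92 ± 0.31 in WT (adjusted p = 1) and 1.17 ± 0.41 in CKO mice (adjusted p = 0.739), and over 21 other settings 0.84 to 1.11 and 0.60 to 1.48, with adjusted p of at least 0.129 and 0.228.

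Trac, the constant gene of the alpha chain, gave -0.02 ± 0.25 and -0.51 ± 0.33 in the same comparisons. Trdc rested on 7 to 110 counts in a library, 547 in the loaded and 290 in the nonloaded libraries together. Its exons (chromosome 14, 54142851 to 54148868, plus strand) overlap Gm43434 and Trdv5 on the other strand, and whether the counting used strand is not given in these sources. The other gamma and delta chain rows of the table, Trdv2-2, Trdv4 and Trgv2, held 22, 32 and 50 counts over all libraries and were not tested.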

How the data were processed

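Total RNA was sequenced from loaded and nonloaded ulnae of 11 mice. The authors deposited estimated counts per gene, 1 file per library, made with STAR and RSEM on GRCm38, per the submitters' processing notes; their versions, the annotation and the strand setting were not given in these sources. Libraries came from 4 ng of RNA with a stranded kit, per the labels' protocols. Of the 560362 values, 0 were not whole, so that rounding changed none. Ensembl identifiers were matched to symbols and to exon coordinates of the annotation on GRCm38. Exons of Cd247, Klrb1c, Cd3e, Cd7, Eomes, Skap1, Lat, Lck, Gata3 and Trdc overlap other genes, and reads may be shared with these or between Trbc1 and Trbc2.

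Groups came from genotype and limb labels. The test was edgeR 4.0.16 quasi-likelihood (R 4.3.3), with TMM scaling, filterByExpr (18793 genes), 1 mean per group, 18 residual degrees of freedom and Benjamini-Hochberg adjustment over all genes at 0.05; its biological coefficient of variation was 0.271. SE is the log2 fold change over the root of F. Log2 CPM had a prior count of 2. Limbs of 1 number are from 1 animal, so numbers pair the samples. Their deviations from group means correlated at -0.256 to 0.415 (median 0.189), over 0.1 in 7 of 11 mice. No 2 libraries of a group were alike (chi-square per degree of freedom 26.3 to 521 over 54 pairs).

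Alternatives were the mouse as a replicate block, median-ratio scaling, no count filter, at least 1 CPM in 4 libraries, only the groups compared, a muscle covariate, DESeq2 1.42.0, limma voom 3.58.1 with quality weights and leaving out each mouse; leaving out 686 with 688 or 691 with 698 was added after the data were seen. The members, lists and rules were chosen with earlier results of these data known. Named were Cd3e and Nkg7, 6 genes standing for their roles, the 3 members and 2 other T and NK genes of smallest p per comparison, and members past the threshold. A gene that this rule names is not reported here. Ranges and extremes were named after their values were seen. The fits were tested on simulated counts.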

Additional observations from a re-analysis of the deposited data

Results flagged for a closer look

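A sample was marked here where its gap to the next, over its group's range, was above Dixon's 95% critical value. Chance marks about 1 in 20 groups, and 9 of 60 were marked. The groups share libraries and hold genes that move together, so they are not independent. The 2 shares therefore do not measure an excess over chance. In WT nonloaded ulnae Nkg7 was 31.3 CPM in mouse 699, with the next mouse at 15.5 CPM, and Cd4 was 37 CPM there, with the next at 15.7 CPM. Mouse 685 stood above the other WT nonloaded ulnae for Trbc2 (5.18 CPM, next 2.85), Klrd1 (2.23 CPM, next 1.68) and Bcl11b (6.06 CPM, next 2.85). Trbc2 was 4.18 CPM in WT loaded 694, with the next at 2.53 CPM. Klrd1 was 0.563 CPM in CKO loaded 698, with the next at 1.05 CPM. The limb difference of mouse 694 was marked on both sides, at 1.23 over the T cell genes (next 0.128) and at 1.09 over the NK and cytotoxic genes (next 0.101).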

How the results depend on the processing

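Of the 34 to 37 genes tested, 0 passed adjusted p 0.05 in any of the 5 comparisons under any setting run. Medians moved by less than 1 SD of the per-mouse or per-library medians, a wide measure of 0.341 to 0.558. Within it the median for loading in WT went from 0.03 to -0.17 without mouse 694. In CKO it went from -0.68 to -0.33 without 691 and 698, and in nonloaded bone from 0.15 to -0.03 without 691. In the paired fit with the mouse as a replicate block, the median was 0.06 for loading in WT, -0.64 in CKO (17 genes at an unadjusted p under 0.05, against 12) and -0.65 for the interaction; it changed no call. Some signs turned. For loading in WT, Cd3e (-0.03) ran from -0.32 to 0.15 and Nkg7 (0.09) from -0.02 to 0.40 when mice were left out in turn, and Icos in loaded bone (0.12) from -0.08 to 0.40. For loading in CKO, Nkg7 (-0.43) was 0.07 with the muscle covariate and 0.04 without mice 691 and 698, where Ccl5 (-0.54) was 0.00. Gzmb there (-0.04) was 0.11 with the muscle covariate, 0.25 in limma voom, 0.02 without 686 and 688, 0.25 without 691 and 698, and -0.31 to 0.11 when mice were left out in turn. The interaction of Ccl5 (-0.34) was 0.09 in limma voom and 0.21 without 691 and 698, and Fasl in nonloaded bone (0.37) was -0.01 without them. T minus NK was -0.08 in WT and 0.09 in CKO by medians of levels. The causes were not tested. Genes at few counts, such as Gzmb and Icos, limit the precision, and 4 CKO mice leave wide errors.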
